A study of Mus musculus with 11 samples.

Results

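Oligodendrocyte progenitor cells (OPCs) were looked for among single nuclei of the hindbrain and upper spinal cord of mice with or without experimental autoimmune encephalomyelitis (EAE), and 2110 of 189709 barcodes met the membership rule. A member had at least 500 genes, less than 5% mitochondrial unique molecular identifiers (UMIs, 1 for each captured transcript), UMIs of at least 2 of the genes Pdgfra, Cspg4, Vcan, Lhfpl3 and C1ql1, and at least 2 UMIs of Pdgfra or of Vcan. It also had at most 1 UMI of Enpp6, at most 1 of Mog and Mag together, no UMI of Dcn or Col1a2, and less than 0.2% of its UMIs from the granule cell genes Gabra6, Fat2, Chn2 and Etv1. Members were thus chosen by the measured UMIs of these genes, whose levels are given as a description with no test. Members made up 1.13% of the 186863 barcodes that passed the limits on genes and mitochondrial UMIs.

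Nuclei had been isolated from cerebellum, the brainstem of 1 hemisphere and cervical cord of male mice aged 8 to 12 weeks, and had been sorted by their DNA stain with no exclusion of doublets. Both Il12rb2 alleles carried loxP sites in every mouse (Il12rb2fl/fl, here fl), controls included, and the NestinCre/+Il12rb2fl/fl mice (here NestinCre) also carried a Cre recombinase under the Nestin promoter. This promoter is active in the neural precursors from which neurons, astrocytes and oligodendrocytes descend, so the design does not single out OPCs. EAE had been induced with a myelin oligodendrocyte glycoprotein peptide in complete Freund's adjuvant and pertussis toxin, and tissue was taken at day 10. Each genotype had 4 samples with EAE, and of the samples without immunization (naive) 2 were fl and 1 was NestinCre. The study counts its EAE samples as 4 mice of each genotype. Its reporting summary describes 1 naive fl sample, by its run fl naive 2 here, as an internal control for batch effects. Whether the 2 fl naive samples came from 2 mice is not stated. Sequencing run 1 covered EAE samples 1 to 3 of each genotype. Run 2 covered 1 more EAE sample of each, called replicate 4 here, together with fl naive 2. The other naive samples, fl naive 3 and NestinCre naive 2, were in run 3. The libraries held 40761007 to 86063464 UMIs, and 4288 of 185366 distinct barcodes occurred in at least 2 libraries, none of them as a member in more than 1.

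OPCs are glial precursors that persist in the adult brain and spinal cord, divide under the control of platelet-derived growth factor, whose receptor is encoded by Pdgfra, and give rise to myelinating oligodendrocytes. They carry proteoglycans such as NG2 (Cspg4) and receive synaptic input through glutamate and GABA receptors. Cells that sense interferons activate STAT transcription factors, which raise the genes of antigen presentation on major histocompatibility complex (MHC) class I, of the interferon-induced GTPases and of antiviral proteins, and oligodendrocyte lineage cells can take on such a state in inflamed tissue. Interleukin-12 binds a receptor made of the chains encoded by Il12rb1 and Il12rb2 and is best known for driving interferon gamma production by T cells and natural killer (NK) cells.

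The label of the members was first checked against their genes. Pdgfra, the gene that defines OPCs, had a UMI in 762 members (36.1%) and none in 1348 (63.9%). Most members had entered through Vcan, which encodes the matrix proteoglycan versican: 2064 members had at least 2 UMIs of Vcan, 626 had at least 2 of Pdgfra, and 1484 met that limit through Vcan alone. Lhfpl3 was detected in 2100 members, Cspg4 in 509 and C1ql1 in 305. Members without Pdgfra had a median of 7815 UMIs, those with Pdgfra 3599.5, and all quality-passing nuclei 2456. Just inside the rule were 637 members with exactly 2 UMIs of Vcan and no Pdgfra, and just outside it were 2335 barcodes that failed only the limit of 2 UMIs of Pdgfra or Vcan, 166 of which had a UMI of Pdgfra. A further 289 barcodes failed only for having 1 of the 5 markers, 136 only on the granule cell genes, 134 only on Mog and Mag, 38 only on Dcn and Col1a2 and 31 only on Enpp6.

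Clustering of the 2110 members gave 13 clusters. Cluster 1, with 659 nuclei, led with Pdgfra, Itga9, Vxn and Cspg4, was Pdgfra-positive in 88.6% of nuclei, had 8 of 10 OPC markers that the rule had not used (Olig1, Olig2, Sox10, Tnr, Pcdh15, Cacng4, Sox6 and Xylt1), and was OPC-like. A marker was counted for a cluster where it stood at 20 CPM or more (UMIs scaled to the same total) and at 2 or more times its median over the clusters. Cluster 10, with 36 nuclei, led with Bcas1 and Bmp4 and also held Gpr17 and Fyn among its leading genes, markers of committed progenitors, and cluster 11, with 15 nuclei that all had Pdgfra, led with the division genes Top2a and Cenpf. Clusters 2, 3 and 4, with 500, 415 and 163 nuclei, led with Unc5d, Il1rapl2 and Nell1, with Prkcd, Gldc and Chst9, and with Kcnn3, Col23a1 and Rasgrp1, and by that measure none of the 10 OPC markers counted for them. Pdgfra was detected in 4.2%, 0.482% and 1.23% of their nuclei and Sox10 in 4.4%, 1.93% and 1.23%, while Tnr was detected in 84.8%, 98.1% and 99.4% and Pcdh15 in 90.6%, 15.2% and 98.8%. Of neuronal genes, Snap25 stood at 831, 774 and 866 CPM in clusters 2, 3 and 4, against 457 in cluster 1. Gad1 was detected in 34.4%, 77.6% and 89.6% of their nuclei, against 26.3%, and Rbfox3 in 91.2%, 17.1% and 53.4%, against 12.6%. Detection also follows depth, with medians of 14223.5, 5550 and 10901 UMIs in clusters 2, 3 and 4 and 3257 in cluster 1. Per UMI, Gad1 stood at 56.2, 346 and 276 CPM, against 87.7, and Rbfox3 at 354, 33.5 and 83.0, against 41.1. Syt1 (134 against 147 CPM) and Rbfox1 (1263 against 2582) were also lower in cluster 3, and both were higher in clusters 2 and 4. Clusters 2, 3 and 4 were neuron-like, cluster 3 by Snap25 and Gad1 and not by Rbfox3. Many of the members therefore went against the label, and the text speaks of members (all 2110) and of Pdgfra-positive members (the 762). This division was made after the values had been seen.

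**Figure D1:**
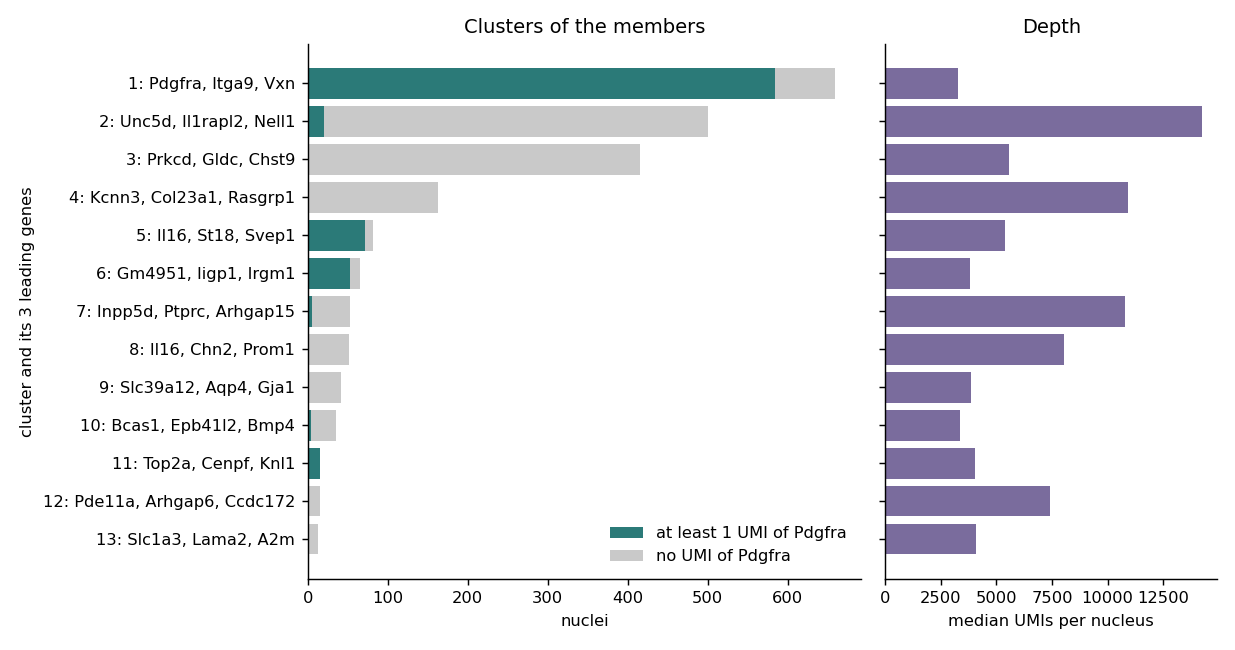
Nuclei per cluster of the 2110 members, with the 3 leading genes of each cluster, split by detection of Pdgfra (left, number of nuclei) and the median UMIs per nucleus (right). Cluster 1 holds 584 of the 762 Pdgfra-positive nuclei, while clusters 2 to 4 are larger in UMIs and almost without Pdgfra.

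Smaller clusters followed other genes. Cluster 5 (82 nuclei, 87.8% with Pdgfra) mixed OPC markers with the granule cell genes Chn2, Fat2, Cadps2 and Gabra6 among its leading genes and stayed unnamed. Cluster 6 (65 nuclei, 81.5% with Pdgfra) had 7 of the OPC markers and led with the interferon-induced genes Gm4951, Iigp1, Irgm1, Oasl2 and H2-K1. Markers of other cell types that counted for it were Gpr17, Neu4, Bcas1, Dock2 and Slc1a3, as for cluster 1, and also C1qa, Mag and Cldn11. NestinCre EAE 1 to 4 gave 15, 6, 9 and 27 nuclei of cluster 6, fl EAE 1 to 4 gave 0, 2, 2 and 0, and the naive samples gave 1 and 2 (fl) and 1 (NestinCre). Cluster 7 (53 nuclei) led with the leukocyte genes Inpp5d and Ptprc, cluster 8 (52) with granule cell genes, cluster 9 (42) with the astrocyte genes Aqp4 and Gja1, and cluster 13 (13) with Slc1a3 and Lama2. Among the highest doublet scores, taking in each library the share expected from its number of barcodes, were 3.74% of members, 19.2% of cluster 8, 15.4% of cluster 6, 14.6% of cluster 5 and 11.3% of cluster 7, against 14.3% of all quality-passing nuclei. In the OPC-like cluster 1 the share was 1.67%. Cluster sizes are given as a description, since the genes that define them also differ between groups.

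Pdgfra-positive members carried the OPC programme. The summed level of 21 OPC marker genes that the rule had not used ran from 22702 to 28629 CPM over the 11 samples, against 8760 to 10638 over all members and 2320 to 2998 in nuclei chosen as mature oligodendrocytes (at least 2 UMIs of Mog and Mag together and none of Pdgfra; 16786 nuclei). In nuclei chosen as granule cells, the small excitatory neurons of the cerebellum (at least 0.5% of UMIs from the 4 granule cell genes and none of Pdgfra, Mog or Mag; 35050 nuclei), it ran from 2220 to 2640 CPM. Neither of these sets holds a nucleus with a UMI of the leukocyte genes Ptprc, Csf1r, Dock2, Inpp5d, Itgam or Cx3cr1. The lowest Pdgfra-positive sum thus lay above the highest sum of each other set. Markers of other cell types were present as well. The 12 granule cell and neuron markers summed to 4948 to 7173 CPM in Pdgfra-positive members, against 7898 to 10331 over all members. They summed to 2313 to 4084 in mature oligodendrocytes and 25826 to 29576 in granule cells. The rule and the choice of mature oligodendrocytes limit 4 of the 12, and granule cells were chosen by the same 4. The 10 astrocyte markers summed to 1959 to 2886 CPM in Pdgfra-positive members, against 1280 to 2173 over all members, 340 to 637 in mature oligodendrocytes and 144 to 253 in granule cells, and in Pdgfra-positive members both sums overlapped between the genotypes in EAE. Over all members the astrocyte sum did not, at 1759 to 2173 CPM in fl EAE and 1280 to 1735 in NestinCre EAE. Of 12 markers of T and NK cells 4 were detected in Pdgfra-positive members, summing to 0 to 5.93 CPM in fl EAE, 4.03 to 8.70 in NestinCre EAE and 27.2 in fl naive 2, with Cd3g, Cd3d, Cd2 and Gzmb at 0 in every sample. Dcn and Col1a2, markers of the leptomeninges, were at 0 by the rule, and 7 of 12 leptomeningeal and vascular markers were detected, with sums of 0 to 12.1 CPM in the EAE samples and 27.2 in fl naive 2.

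The share of members overlapped between the genotypes in EAE. Of quality-passing nuclei, 1.09%, 0.996%, 1.40% and 1.15% were members in the fl EAE samples, against 1.35%, 0.941%, 1.03% and 1.47% in the NestinCre EAE samples. Group averages of 1.16% ± 0.173 for fl and 1.2% ± 0.252 for NestinCre (SD, n = 4 each) lay 0.038 percentage points apart (exact two-sided permutation test, p = 0.857). The groups overlapped, with both the lowest and the highest share in NestinCre EAE. Pdgfra-positive members made up 0.385%, 0.414%, 0.625% and 0.291% in fl EAE and 0.472%, 0.403%, 0.454% and 0.467% in NestinCre EAE, means of 0.429% ± 0.141 and 0.449% ± 0.0313 that differed by 0.0202 percentage points (exact two-sided permutation test, p = 0.771, n = 4 each). Within run 1, with 3 samples a group, the differences were -0.0566 for members (exact permutation p = 0.6) and -0.0316 for Pdgfra-positive members (exact permutation p = 0.9), and with that size the smallest p that can be reached is 0.1. With each nucleus thinned to 1500 UMIs, so that depth was equal, and 949 to 5746 shallower nuclei left out of each EAE sample, the shares were 0.541% ± 0.18 in fl EAE and 0.621% ± 0.0497 in NestinCre EAE for members (difference 0.0794 percentage points, exact two-sided permutation p = 0.486) and 0.329% ± 0.102 and 0.39% ± 0.0575 for Pdgfra-positive members (difference 0.0605, exact permutation p = 0.4, n = 4 each). The groups overlapped in both. Without fl EAE 3 the thinned member shares did not overlap (difference 0.156, exact permutation p = 0.0571, the smallest that 3 against 4 samples can give), and without fl EAE 4 the difference was 0.00916. Counting error alone gave exact 95% binomial intervals such as 0.218% to 0.381% for fl EAE 4 and 0.514% to 0.752% for fl EAE 3 for the share of Pdgfra-positive members. The naive samples held 0.278% and 0.332% (fl) and 0.384% (NestinCre) Pdgfra-positive members.

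**Figure D2:**
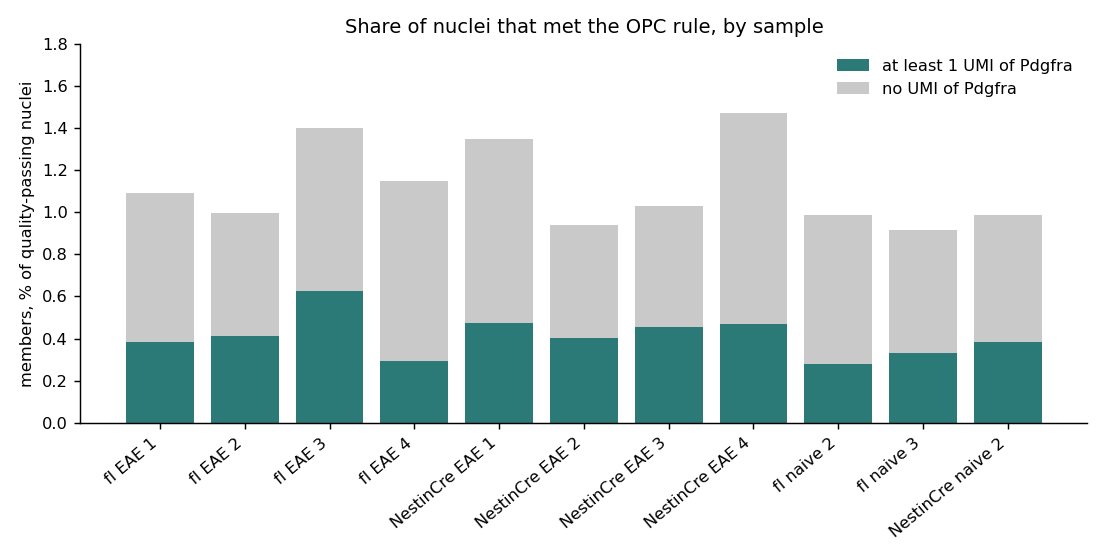
Share of quality-passing nuclei (percent, from 0) that met the rule in each of the 11 samples, split by detection of Pdgfra. The whole bars run from 0.914% to 1.47% and the Pdgfra-positive parts from 0.278% to 0.625%, with the EAE genotypes overlapping in both.

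The targeted gene, Il12rb2, lies at 6:67268302-67353172 on the minus strand of GRCm39. It gave 17, 9, 17 and 24 UMIs over the members of fl EAE 1 to 4 and 20, 19, 6 and 26 over those of NestinCre EAE 1 to 4, a log2 change of 0.13 (adjusted p = 0.99, edgeR's quasi-likelihood test). In Pdgfra-positive members it gave 3, 2, 1 and 2 UMIs in fl EAE and 0, 2, 2 and 2 in NestinCre EAE, pooled levels of 6.2 and 4.55 CPM. Granule cells of the same samples had 15.9 and 17.9 CPM and mature oligodendrocytes 4.26 and 3.06, so the few Il12rb2 UMIs of Pdgfra-positive members lay between the levels of these sets. In the naive fl samples Pdgfra-positive members held 7 UMIs, or 15.3 CPM. UMIs were counted over the whole gene, introns included, and the labels do not give the part between the loxP sites, so these counts check neither the deletion nor its absence. Il12rb1, which encodes the other receptor chain, had no UMI in Pdgfra-positive members of fl EAE, which allows up to 2.33 CPM, and 2 in those of NestinCre EAE (1.52 CPM). In mature oligodendrocytes of the same samples Il12rb1 was at 8.99 and 38.6 CPM (log2 change 1.98, adjusted p = 0.0144, edgeR).

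Between the genotypes in EAE, the genes called in Pdgfra-positive members were higher in NestinCre mice, among them genes of MHC class I presentation and of interferon signalling and the GTPases Irgm1 and Irgm2. Sums over the nuclei of each sample were compared with edgeR, with sequencing run in the model, so the mouse is the replicate, and an adjusted p under 0.05 over all genes tested counts as a call. A gene with few UMIs in fl EAE could pass the filter on low counts through NestinCre EAE alone. In fl EAE, every sample of H2-K1, B2m, Irgm1, Irgm2, Gm4951, C4b, Herc6, Hif3a and Gm12216 lay under the level the filter asks for. These genes passed through NestinCre EAE alone. The numbers of called among tested genes of a list and the list medians of log2 change are therefore a description. In sums over nuclei, more nuclei in an induced state and more RNA per nucleus cannot be told apart. Of 5335 genes tested, 17 were called (0.319%), all higher in NestinCre EAE, and 245 had an unadjusted p under 0.05. In all 17 the lowest NestinCre EAE sample lay above the highest fl EAE sample, which held in that direction for 1.44% of all genes tested. For the genes that passed the filter through NestinCre EAE alone, this follows from passing it and is no support. Over all members, 33 of 10901 genes were called (0.303%), 29 of them higher (0.266%) and 4 lower (0.0367%), and 14 of the 17 genes were among the 33. Pdgfra-positive members of a sample summed to 183756 to 506254 UMIs.

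MHC class I presents peptides from inside the cell to CD8+ T cells, and 4 of its genes were higher. H2-K1 (17:34214987-34219321, positions on GRCm39), a class I heavy chain, stood at 9.24, 7.37, 15.8 and 13.5 CPM in fl EAE 1 to 4 and at 119, 71.3, 125 and 209 in NestinCre EAE 1 to 4. The lowest NestinCre EAE sample lay far above the highest fl EAE sample (2 to 8 UMIs a sample against 17 to 102), and the log2 change was 3.37 ± 0.32 (SE, adjusted p = 4.62e-06, edgeR). The naive samples, at 16.3 and 22 CPM in fl and 3.16 in NestinCre, lay just above and below the fl EAE range. B2m (2:121977957-121983594), the light chain shared by class I molecules, stood at 23.1, 14.7, 23.7 and 10.2 CPM in fl EAE and 110, 58.8, 92.8 and 133 in NestinCre EAE, with no overlap (log2 change 2.44 ± 0.32, adjusted p = 0.000256). Nlrc5, the transcriptional activator of class I genes, was at 0, 3.69, 37.5 and 3.39 CPM in fl EAE and at 122, 147, 105 and 135 in NestinCre EAE, so that fl EAE 3 stood apart from its group but stayed below every NestinCre EAE sample (log2 change 3.05 ± 0.43, adjusted p = 0.000459). H2-D1, another heavy chain, was at 32.3, 25.8, 45.4 and 33.9 CPM against 102, 79.7, 84.7 and 228, and the last sample carried much of the difference (log2 change 1.73 ± 0.28, adjusted p = 0.00203; 1.34, adjusted p = 0.0568, without NestinCre EAE 4). H2-K1 and H2-D1 are similar in sequence, so reads could be split between them or lost. Of the 22 genes of this list 6 passed the filter on low counts. Their median log2 change of 2.09 (0.00 over all genes tested) is a description only. The other 2, the chaperones Calr and Pdia3, had log2 changes of 0.35 and 0.22 and were not called.

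The interferon-induced GTPases, which attack the vacuoles of intracellular pathogens, had 2 of 18 list genes past the filter on low counts, Irgm1 and Irgm2, which had few UMIs in fl EAE and passed it through NestinCre EAE. Irgm1 (11:48752795-48763164) stood at 27.7, 0, 11.9 and 3.39 CPM in fl EAE and 95.7, 118, 72.6 and 49.3 in NestinCre EAE (log2 change 3.06 ± 0.43, adjusted p = 0.000425). Irgm2 (11:58090444-58113615) stood at 4.62, 3.69, 13.8 and 0 CPM in fl EAE and 60.9, 92.3, 92.8 and 90.3 in NestinCre EAE (log2 change 3.56 ± 0.43, adjusted p = 7.26e-05). Neither gene overlapped between the groups, and all 3 naive samples lay in the fl EAE range of both. Irgm2 overlaps Igtp on the same strand, so reads of the pair may not have been told apart. Gm4951, a related predicted GTPase outside the list, was at 0 in fl EAE 1, 2 and 4 and at 7.90 CPM (4 UMIs) in fl EAE 3, against 122, 71.3, 56.5 and 67.7 in NestinCre EAE (42, 17, 14 and 33 UMIs; adjusted p = 6.84e-05). Its fitted log2 change of 4.62 ± 0.55 depends on the prior count. Iigp1 was not tested for its low counts: it had no UMI in any fl EAE sample and 35, 16, 3 and 35 in NestinCre EAE. Gbp3 and Gbp7, guanylate-binding proteins that were not tested either, ran from 30.8 to 46.4 and from 32.3 to 71.3 CPM in NestinCre EAE and from 0 to 14.7 and from 0 to 7.37 in fl EAE.

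Of 47 interferon signalling and antiviral genes 12 passed the filter, 4 were called higher and none lower, and the median log2 change was 0.98. Stat2 (10:128106352-128128735), a transcription factor of type I interferon signalling, stood at 55.5, 25.8, 29.6 and 23.7 CPM in fl EAE and 95.7, 92.3, 101 and 105 in NestinCre EAE (log2 change 1.64 ± 0.27, adjusted p = 0.00241). It was higher in every NestinCre EAE sample than in any fl EAE sample. Rnf213, an interferon-induced ubiquitin ligase, was at 13.9, 55.3, 51.4 and 23.7 CPM against 128, 101, 113 and 107 (log2 change 1.59 ± 0.28, adjusted p = 0.00634). Herc6, the ligase of the ubiquitin-like protein ISG15 in mice, was at 32.3, 18.4, 17.8 and 30.5 CPM against 78.3, 42.0, 88.7 and 96.5 (log2 change 1.71 ± 0.31, adjusted p = 0.00645). Herc6 reached 65.3 CPM in fl naive 2, inside the NestinCre EAE range. Eif2ak2, the antiviral kinase PKR, did not overlap between the genotypes either (7.37 to 23.7 against 37.8 to 56.5 CPM) but missed the threshold (log2 change 1.79, adjusted p = 0.0611), as did Stat3 (0.87, adjusted p = 0.146). The kinase Jak2 and the repressor Irf2 had log2 changes of 0.04 and 0.14.

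**Figure D3:**
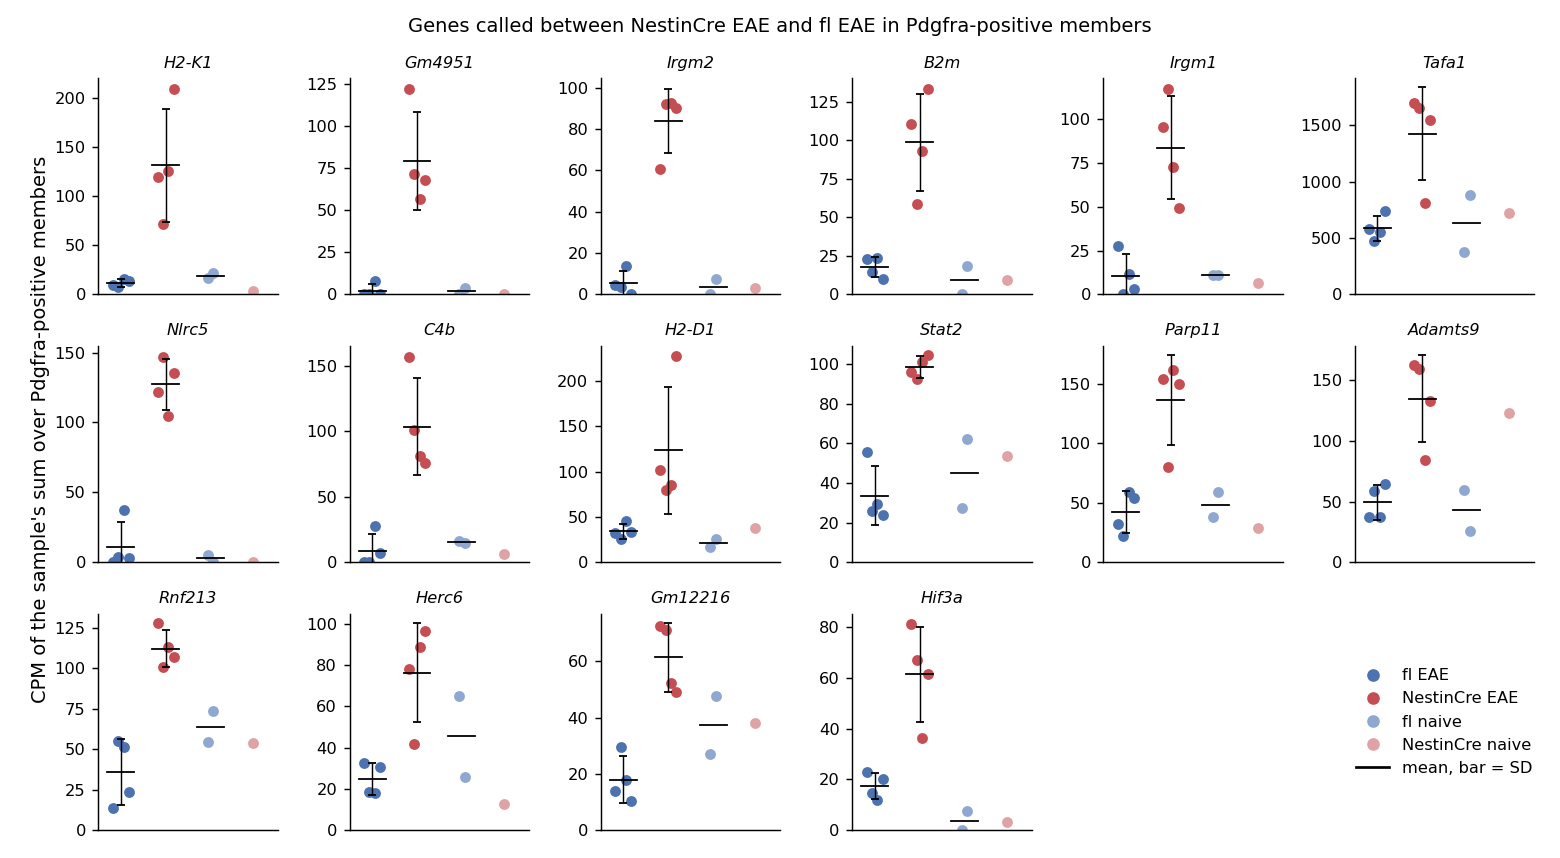
CPM of 16 of the 17 called genes in the sum of Pdgfra-positive members of each sample (points), with the group mean (line) and SD (bar, groups of 4). In each of the 16 panels the 4 NestinCre EAE points lie above the 4 fl EAE points, and naive points reach the NestinCre EAE range for Adamts9 (123 CPM), Herc6 (65.3) and Tafa1 (884).

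Of 23 chemokine, cytokine and complement genes 2 passed the filter. C4b, complement component 4, was at 0, 0, 27.7 and 6.77 CPM in fl EAE and at 157, 101, 80.7 and 75.9 in NestinCre EAE (log2 change 3.15 ± 0.47, adjusted p = 0.000688). The naive samples, at 16.3, 14.7 and 6.33 CPM, lay within the fl EAE range. Of 20 genes known from disease-associated oligodendroglia 11 passed the filter and 6 were higher, among them C4b, H2-D1, H2-K1, B2m and Hif3a, a list that shares members with those above. C4b and Nlrc5 were called by edgeR but not by DESeq2 (adjusted p = 0.22 and 0.136).

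Other called genes belong to none of these groups or have no agreed role in OPCs. Tafa1 (6:96090088-96635542), which encodes a small secreted neural protein, stood at 582, 475, 551 and 738 CPM in fl EAE and 1697, 1658, 811 and 1543 in NestinCre EAE (log2 change 1.32 ± 0.19, adjusted p = 0.000429). NestinCre EAE 3 was well below the rest of its group and still above the 4 fl EAE samples, while fl naive 3, at 884 CPM, exceeded it. Over all members the log2 change of Tafa1 was 0.25 and the groups overlapped (adjusted p = 0.978). Adamts9, a matrix protease, was at 37.0, 59.0, 37.5 and 64.3 CPM in fl EAE and 162, 159, 84.7 and 133 in NestinCre EAE (log2 change 1.49 ± 0.26, adjusted p = 0.00568), but NestinCre naive 2 was at 123 CPM. Hif3a, a transcription factor of the hypoxia pathway that glucocorticoids also raise, was at 23.1, 14.7, 11.9 and 20.3 CPM against 81.2, 67.1, 36.3 and 61.6, with 0 to 7.34 in the naive samples (log2 change 1.92 ± 0.36, adjusted p = 0.0088; 1.70, adjusted p = 0.069, without fl EAE 3).

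Parp11, an ADP-ribosyltransferase, was at 32.3, 22.1, 59.3 and 54.2 CPM in fl EAE and at 154, 79.7, 161 and 150 in NestinCre EAE (log2 change 1.63 ± 0.28, adjusted p = 0.00449). Gm12216, a long non-coding RNA, was at 13.9, 29.5, 17.8 and 10.2 CPM against 72.5, 71.3, 52.4 and 49.3 (log2 change 1.82 ± 0.33, adjusted p = 0.00699; 1.75, adjusted p = 0.0529, without NestinCre EAE 1). Gm12216 is annotated on the strand opposite to Irf1 and across it, and whether the counting used strand is not given in the sources used here. The 17 genes thus comprised 4 of class I presentation, 3 GTPases of the Irg family or related to it, 4 of interferon signalling and antiviral defence, C4b and 5 others.

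The start regions of the called genes were searched for 2 motifs of interferon signalling, because 17 genes had moved together. One was the interferon-stimulated response element core, GAAA followed after any 2 bases by GAAA, which complexes of interferon signalling and the interferon regulatory factors bind. The other was TTCNNNGAA, the palindrome bound by STAT dimers. Each was searched on both strands, with overlapping matches counted. Windows from 250 bases before to 50 bases after the start were taken from RefSeq on GRCm38.p6, an earlier build than the one of the counts. Of 32851 windows in all, 3.44% held the response element core and 8.30% held TTCNNNGAA. Of the 17 genes 13 were in the table, and the response element core stood in 6 of them (B2m, Gm12216, Irgm1, Irgm2, Parp11 and Stat2), TTCNNNGAA in 3 (Gm12216, Irgm2 and Parp11), and neither in 7. A match is a description of the letters, not a site shown to be bound. Below are 4 windows of genes with the first motif, 5′ to 3′ on the strand of the gene, with the letters of its matches, on either strand, in capitals. Irgm1 (GRCm38.p6, chr11:48871371-48871670, minus strand) holds 2 overlapping matches, Irgm2 (chr11:58214727-58215026, plus strand), B2m (chr2:122147437-122147736, plus strand) and Stat2 (chr10:128270248-128270547, plus strand) each hold 1.
Irgm1: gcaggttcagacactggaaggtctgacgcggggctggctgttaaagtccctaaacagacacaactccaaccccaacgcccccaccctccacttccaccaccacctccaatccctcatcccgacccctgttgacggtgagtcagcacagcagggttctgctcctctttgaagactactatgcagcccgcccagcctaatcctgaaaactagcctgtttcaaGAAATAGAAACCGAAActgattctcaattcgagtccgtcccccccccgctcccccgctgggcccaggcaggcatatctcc
Irgm2: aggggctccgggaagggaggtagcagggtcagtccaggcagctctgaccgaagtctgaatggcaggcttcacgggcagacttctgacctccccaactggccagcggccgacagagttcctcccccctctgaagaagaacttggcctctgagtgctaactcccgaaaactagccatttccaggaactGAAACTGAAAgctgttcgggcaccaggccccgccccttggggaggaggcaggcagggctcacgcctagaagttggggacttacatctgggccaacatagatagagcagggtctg
B2m: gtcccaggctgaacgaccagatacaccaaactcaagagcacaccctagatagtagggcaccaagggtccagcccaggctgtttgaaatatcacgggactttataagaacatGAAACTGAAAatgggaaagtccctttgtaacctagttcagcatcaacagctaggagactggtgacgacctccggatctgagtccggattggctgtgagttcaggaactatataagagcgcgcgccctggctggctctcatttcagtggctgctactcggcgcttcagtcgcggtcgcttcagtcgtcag
Stat2: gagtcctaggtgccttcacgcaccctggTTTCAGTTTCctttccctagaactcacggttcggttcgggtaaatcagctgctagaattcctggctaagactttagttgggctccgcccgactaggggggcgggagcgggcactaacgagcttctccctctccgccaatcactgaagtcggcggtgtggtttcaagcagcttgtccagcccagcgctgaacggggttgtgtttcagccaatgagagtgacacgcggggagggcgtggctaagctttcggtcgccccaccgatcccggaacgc

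Markers of immune cells were measured beside these genes. Nuclei with UMIs of at least 3 of those 6 leukocyte genes and none of Pdgfra made up 0.518% to 1.21% of quality-passing nuclei in fl EAE and 1.19% to 2.93% in NestinCre EAE, where only the highest fl EAE sample (fl EAE 3) reached into the NestinCre EAE range. In Pdgfra-positive members all 20 phagocyte and microglia markers were detected, summing to 251 to 365 CPM in fl EAE and 298 to 617 in NestinCre EAE, which overlapped. In granule cells they summed to 131 to 176 and 218 to 348, which did not overlap, over 14 of the 20 markers only, since the other 6 are the leukocyte genes that the choice of those nuclei set to 0. Cd74, the MHC class II chaperone, was at 0 to 3.39 CPM against 4.03 to 39.0 in Pdgfra-positive members and at 1.05 to 7.32 against 27.5 to 42.8 in granule cells, lower in Pdgfra-positive members in each EAE sample of run 1 and higher in the 2 of run 2. None of the 12 class II genes passed the filter, and H2-DMb2 and H2-Ob were at 0, but the sum of the list did not overlap between the genotypes, at 13.9 to 37.2 CPM in fl EAE and 96.5 to 168 in NestinCre EAE in Pdgfra-positive members and at 20.8 to 37.5 and 106 to 147 in granule cells. H2-K1 was at 18 to 65.9 CPM in granule cells of NestinCre EAE, below the 71.3 to 209 of Pdgfra-positive members in each of the 4 samples. Iigp1 was at 8.83 to 24.9 CPM in granule cells against 12.1 to 102 in Pdgfra-positive members. The part of free RNA in these levels was not tested.

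Over all 11 samples, 454 Pdgfra-positive members had no UMI of the 6 leukocyte genes. Between the genotypes in EAE, 9 of the 2727 genes tested in such nuclei were called, beside 17 of 5335 in all Pdgfra-positive members. H2-K1 was at a log2 change of 3.41 (adjusted p = 1.8e-05, edgeR), C4b at 3.12 and H2-D1 at 1.79. Nlrc5 was at 2.40 there, beside 3.05 in all Pdgfra-positive members, and Rnf213 was at 1.42 and was not called (adjusted p = 0.503).

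The response was also counted nucleus by nucleus, each nucleus being thinned to 1500 UMIs so that depth was equal. In Pdgfra-positive members the share of nuclei with at least 1 UMI of the 22 MHC class I and 18 GTPase genes was 42.4%, 31.0%, 47.2% and 35.3% in fl EAE 1 to 4, against 85.7%, 77.0%, 74.1% and 78.8% in NestinCre EAE 1 to 4. The naive samples had 34.5%, 34.5% and 31.6%, inside the fl EAE range. With at least 3 UMIs the shares were 5.08%, 2.82%, 6.6% and 3.92% in fl EAE and 31.7%, 32.8%, 27.6% and 48.1% in NestinCre EAE, so both counts placed every NestinCre EAE sample above every fl EAE sample. Granule cells gave 22.8% to 32.9% and 39.7% to 68.9% with at least 1 UMI, and 0.344% to 1.44% and 2.43% to 17% with at least 3. Mature oligodendrocytes gave 23% to 38.4% and 47.3% to 81.9% with at least 1 UMI, and 0.212% to 5.15% and 11.6% to 48.3% with at least 3. They lay above the Pdgfra-positive members of the same sample in NestinCre EAE 4 (81.9% and 48.3%) and, with at least 3 UMIs, in NestinCre EAE 1 (38.5%). Unthinned, 54.9% to 79.2% of Pdgfra-positive members in fl EAE and 88.1% to 98.4% in NestinCre EAE had a UMI. Thinning left out 0 to 8 Pdgfra-positive members a sample, and their median depths were 2900.5 to 5400 UMIs in fl EAE and 2907 to 3861 in NestinCre EAE. In the EAE samples it left out 34 to 564 mature oligodendrocytes and 132 to 1080 granule cells. Nuclei with UMIs of the leukocyte genes were excluded from both of those sets but not from the Pdgfra-positive members. These shares are given as a description, since they rest on the genes described above.

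**Figure D4:**
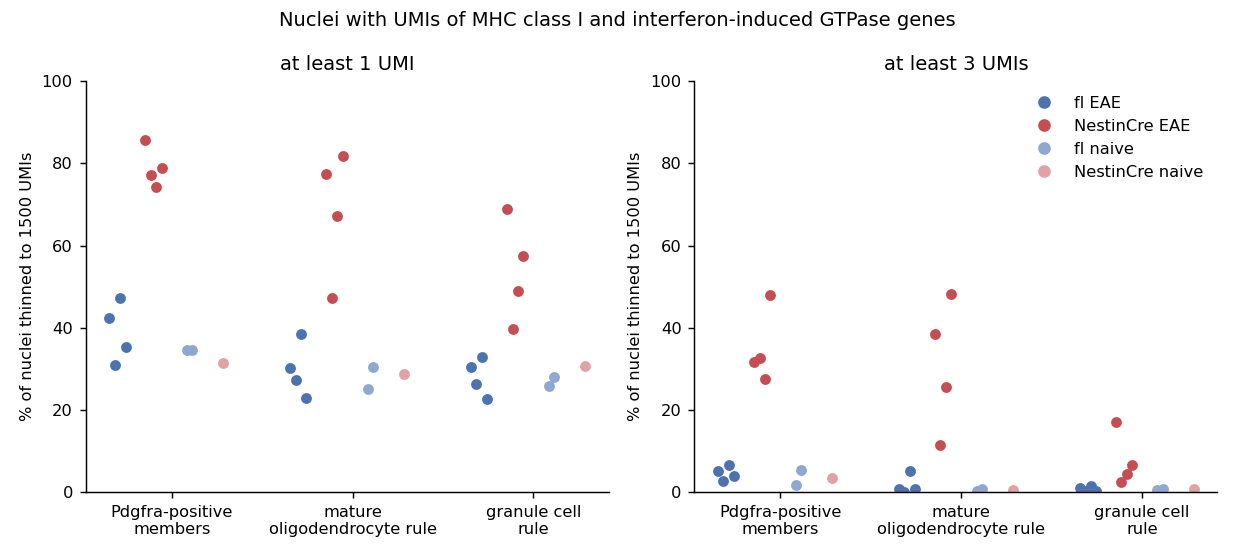
Percent of nuclei, thinned to 1500 UMIs, with at least 1 (left) or at least 3 (right) UMIs of MHC class I and interferon-induced GTPase genes, 1 point per sample, in 3 sets of nuclei. Pdgfra-positive members of NestinCre EAE lie between 74.1% and 85.7% on the left, above the 31.0% to 47.2% of fl EAE, and granule cells of NestinCre EAE lie between 39.7% and 68.9%.

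The genes of OPC identity did not pass the test. Of 21 OPC markers outside the rule 20 were tested in Pdgfra-positive members, none was called, and the median log2 change was 0.03. Tnr, the matrix protein tenascin-R, averaged 4769 ± 400 CPM in fl EAE and 4823 ± 390 in NestinCre EAE (log2 change 0.04), and Pcdh15, a cadherin enriched in OPCs, 4259 ± 557 and 3687 ± 403 (-0.18; SD, n = 4 each). The largest of the 20 changes, that of the transcription factor Olig1, was 0.50, with overlapping groups (adjusted p = 0.889). The rule genes, given without a test, averaged 907 ± 136 and 922 ± 174 CPM for Pdgfra, 1929 ± 291 and 2068 ± 105 for Vcan, and 227 ± 34.4 and 222 ± 38.7 for Cspg4.

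The same held for growth factor signalling and for the steps towards myelin. Of 20 growth factor and trophic receptors 13 were tested and none was called (median log2 change -0.03): Erbb4, a neuregulin receptor, averaged 3162 ± 296 and 3661 ± 371 CPM (log2 change 0.24), and the neurotrophin receptor Ntrk3 765 ± 95.8 and 765 ± 62.3 (0.02). Of 18 ligand genes 6 were tested and none was called (median -0.15). Of 22 differentiation and myelin genes 12 were tested and none was called (median 0.08), with Bcas1, a marker of newly formed oligodendrocytes, at 481 ± 77.5 and 603 ± 165 CPM (log2 change 0.32). Inhibitors of differentiation (7 of 22 tested, median -0.07) and cell cycle genes (3 of 25 tested, median -0.34) gave no call. The cycling cluster 11 held 1, 1, 2 and 1 nuclei of fl EAE 1 to 4 and 1, 0, 1 and 4 of NestinCre EAE 1 to 4.

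Genes of synaptic input and of the surroundings were likewise not called. The 30 tested glutamate and GABA receptor genes of 33 had a median log2 change of -0.04, with Gria4, an AMPA receptor subunit, at 2640 ± 313 and 2217 ± 176 CPM (-0.23) and the metabotropic receptor Grm5 at 1780 ± 206 and 1672 ± 88.6 (-0.06). The 15 tested perineuronal and matrix genes had a median of 0.09 and the 20 axon guidance and migration genes one of 0.06, with the netrin receptor Dcc at 2004 ± 186 and 2055 ± 101 CPM. Glucocorticoid-responsive genes had 9 of 21 tested and 1 called, Hif3a, with a median of 0.39, and Fkbp5 at a log2 change of 0.57 did not pass. Stress and heat shock genes (7 of 20 tested, median 0.02), regional patterning genes (3 of 30, 0.18), interleukin-12 family genes (2 of 14, 0.12), phagocyte markers (3 of 20, 0.37), astrocyte markers (4 of 10, 0.12) and granule cell and neuron markers (8 of 12, 0.02) gave no call. No gene of the MHC class II, immediate early, T and NK cell, or leptomeningeal and vascular lists passed the filter. Such misses do not show that these genes were alike: the simulated test at this depth recovered 70.2% of genes changed by 1 on the log2 scale. The simulation gave 161 calls, against 17 in the data, and more calls loosen the adjusted threshold. Recovery in the data may therefore have been lower.

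Over all members the same direction was seen with more genes, at more UMIs, most of which came from members without Pdgfra. These sums include the Pdgfra-positive members, so the 14 shared calls are no independent check. In members without Pdgfra 10 of the 17 genes were tested and 2 were called, B2m among them. Pdgfra-positive members gave 1289334 of the 6629415 member UMIs in fl EAE and 1318073 of 6563649 in NestinCre EAE. Sums over all members therefore describe OPCs only in part. The 5 of 18 GTPases that passed the filter were called higher (Gbp7, Irgm1, Irgm2, Igtp and Iigp1, log2 changes 2.80 to 5.29), but the whole list summed to 4.96 to 27.1 CPM in fl EAE against 124 to 234 in NestinCre EAE, so they had passed through the group where they are high. Also called higher were 5 of 14 class I genes, Tap1 being the fifth (log2 change 2.84), 10 of 22 interferon signalling and antiviral genes, and Ctss, the class II protease cathepsin S (2.36; 2.06, adjusted p = 0.0603, without NestinCre EAE 4). H2-D1 was not called over all members without NestinCre EAE 1 (1.26, adjusted p = 0.059), NestinCre EAE 4 (0.94, 0.154) or fl EAE 4 (0.95, 0.12). Of the 10 interferon signalling and antiviral genes, Parp9 lost its call in 12 of 16 alternatives, among them the fits without each EAE sample but fl EAE 3 (1.17 to 1.42, adjusted p = 0.0611 to 0.299). Stat2 lost it in 10 of 17, among them those without each EAE sample but fl EAE 2 (0.60 to 0.69, 0.0593 to 0.109), and Parp12 in 9 of 17, among them those without fl EAE 1, 2 or 3 or NestinCre EAE 1, 2 or 3 (0.95 to 1.14, 0.0504 to 0.223). Tap1, a peptide transporter, was at 0, 1.69, 2.96 and 1.35 CPM in fl EAE and at 15.1, 8.5, 12.7 and 12.1 in NestinCre EAE. Stat3, which relays interleukin-6 type cytokines, stood at 38.3, 47.3, 49.3 and 38.8 CPM against 93.2, 76.5, 65.3 and 66.1 (log2 change 0.80, adjusted p = 0.00999, edgeR; 0.73, 0.0579 without fl EAE 1 and 0.68, 0.059 without NestinCre EAE 1). Cd274, the checkpoint ligand PD-L1, was at 4.17, 1.69, 4.93 and 2.25 CPM against 14.4, 12.8, 15.6 and 7.92 (1.86, adjusted p = 0.00987; 1.89, 0.0511 without fl EAE 1). Slit2, an axon guidance ligand, was at 169, 155, 222 and 141 CPM against 281, 234, 281 and 271 (0.65, adjusted p = 0.0169), and fl naive 2, at 245 CPM, lay within the NestinCre EAE range. Slit2 lost its call without fl EAE 1, 2 or 4 or NestinCre EAE 1 or 4 (0.56 to 0.62), and its log2 change was 0.24 (adjusted p = 0.942) among members of at most 6000 UMIs. Trim30a and Arhgap15, among the leading genes of the leukocyte-type cluster 7, were also called (2.72 and 1.43), Arhgap15 not without fl EAE 1 (1.37, adjusted p = 0.0739), fl EAE 2 (1.24, 0.0659) or NestinCre EAE 1 (1.15, 0.087).

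Gja1, Lama2 and Abi3bp, 3 of the 4 genes lower over all members, were among the leading genes of the small clusters 9 and 13. Gja1, the astrocyte connexin 43, was at 10.0, 11.8, 9.37 and 9.47 CPM in fl EAE and 4.11, 0.850, 2.92 and 2.76 in NestinCre EAE (log2 change -1.83, adjusted p = 0.0294, edgeR), and Lama2, a laminin chain, at 37.5, 29.6, 34.5 and 36.1 against 19.9, 13.6, 17.5 and 8.96 (-1.28, adjusted p = 0.00844). Neither overlapped between the groups, and 1.5% of all genes tested lay apart in that direction. Abi3bp (-1.83) and Wdr17 (-0.65) were also called. Cluster 9, led by Slc39a12, Aqp4 and Gja1, held 5, 7, 8 and 6 nuclei of fl EAE and 2, 0, 2 and 3 of NestinCre EAE, and cluster 13 held 1, 2, 0 and 3 against 0, 0, 1 and 0. Their part in these values was not tested. In Pdgfra-positive members Lama2 and Gja1 overlapped between the groups and Wdr17 had a log2 change of 0.06. Among the members without Pdgfra of the EAE samples 12 of 10034 genes were called (0.12%), 5 of them higher (0.0498%; Arhgap15, B2m, Iigp1 and Slit2 among them) and 7 lower (0.0698%), Slc1a3, an astrocyte glutamate transporter, at -2.09. Lama2 lost its call without fl EAE 4 or NestinCre EAE 4, at -0.95 in both cases (adjusted p = 0.127 and 0.113). Of the fits that left out 1 sample, Gja1 was called only in that without NestinCre EAE 1 (-1.60 to -1.87 without each other sample), Abi3bp was not called without NestinCre EAE 4 (-1.24, adjusted p = 0.51), fl EAE 1, fl EAE 2 or NestinCre EAE 1 (-1.74 to -1.82), and Wdr17 was called only without fl EAE 3 or without NestinCre EAE 1 (-0.50 to -0.69 without each other sample).

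The genotype difference of Pdgfra-positive members was set beside that of other cells of the same mice. Of the 17 genes 13 were also called in mature oligodendrocytes, where 109 of 12210 genes were called (0.893%; 0.835% higher and 0.0573% lower), and 9 in granule cells, where 95 of 13691 were (0.694%; 0.672% higher and 0.0219% lower). The 4 not called in mature oligodendrocytes were Adamts9, Hif3a, Irgm2 and Tafa1. The difference of the genotype effect itself was tested with sample as a block. Against mature oligodendrocytes no difference was called (0 of 12140 genes by edgeR, 0 by DESeq2, 491 with an unadjusted p under 0.05): the difference was -0.21 ± 0.40 for H2-K1 and 1.13 ± 0.43 for Tafa1 (log2, SE, adjusted p = 1 for each). With standard errors of this size, the lack of calls does not show that the effects were alike. With all members the count was also 0 of 13475 by both tools, with 626 genes at an unadjusted p under 0.05.

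Against granule cells 4 of 13759 genes differed (0.0291%), 3 with a higher effect in Pdgfra-positive members (0.0218%) and 1 with a lower one (0.00727%). Over all members 3 of 14412 differed (0.0208%), 1 higher (0.00694%) and 2 lower (0.0139%). The genotype effect of Stat2 was larger in Pdgfra-positive members by 1.38 ± 0.28 (adjusted p = 0.0427, edgeR), and those of Gabrb1, a GABA receptor subunit, and Kcnip1, a potassium channel partner, by 0.85 ± 0.16 (adjusted p = 0.0347) and 0.99 ± 0.20 (adjusted p = 0.0427), though neither was called between the genotypes within Pdgfra-positive members. For Stat2 the difference lost its call without fl EAE 2 (1.27, adjusted p = 0.317), without NestinCre EAE 2 (1.33, adjusted p = 0.0742), without fl EAE 4 (1.21, adjusted p = 0.214) and without NestinCre EAE 4 (1.23, adjusted p = 0.138). Gabrb1 lost it without fl EAE 1 (0.80, adjusted p = 0.264), NestinCre EAE 1 (0.83, 0.0526) and NestinCre EAE 2 (0.77, 0.0841), and Kcnip1 without fl EAE 1 (0.92, 0.339), fl EAE 3 (0.73, 0.087) and NestinCre EAE 2 (0.87, 0.125). DESeq2 called none of the 3 (adjusted p = 0.487 for Stat2 and Gabrb1 and 1 for Kcnip1), and with the median-ratio scaling of DESeq2 (RLE) in edgeR Stat2 and Kcnip1 were not called (adjusted p = 0.0542 for each). Zbtb16, a glucocorticoid-responsive transcription factor, had the opposite sign, at -2.17 ± 0.24 (adjusted p = 1.13e-07). Its level in Pdgfra-positive members was 291, 273, 120 and 542 CPM in fl EAE and 366, 264, 68.6 and 367 in NestinCre EAE, which overlapped, while in granule cells it was 5.79, 6.29, 5.23 and 7.82 against 43.0, 24.3, 10.4 and 27.3. The classes of 1 sample share a library and its free RNA.

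**Figure D5:**
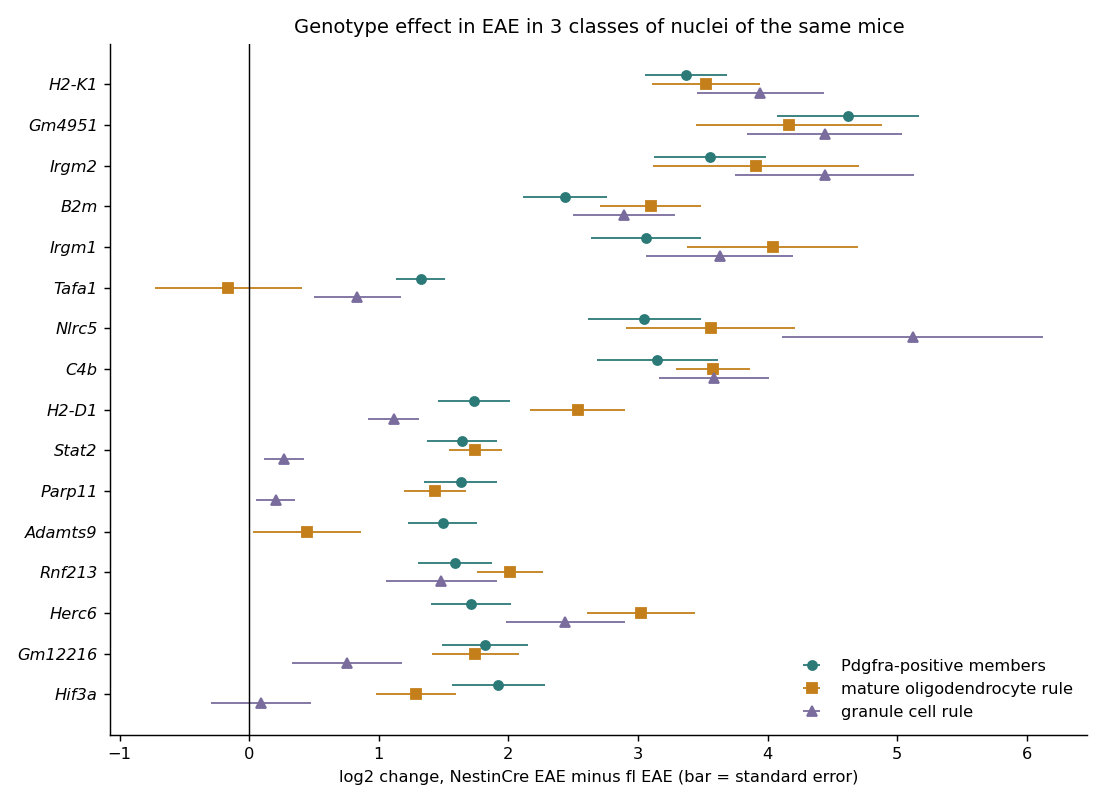
Log2 change between NestinCre EAE and fl EAE (x axis, bar = standard error) of 16 of the 17 called genes in Pdgfra-positive members, mature oligodendrocytes and granule cells of the same 8 mice. H2-K1, Irgm1 and C4b lie to the right of 0 in all 3 sets, Stat2 lies at 1.64 in Pdgfra-positive members and close to 0 in granule cells, and Tafa1 lies at -0.16 in mature oligodendrocytes.

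EAE against the naive state was weakly measured, because with run in the model the contrast in fl mice rests on run 2, where fl EAE and fl naive meet. NestinCre naive is 1 sample, assumed to vary like the other groups, and shares no run with NestinCre EAE. The contrast in NestinCre mice is therefore reached through fl naive 2 and fl naive 3, and the interaction through NestinCre naive 2 against fl naive 3 in run 3. In fl mice no gene was called over all members (0 of 12418 by edgeR, 0 by DESeq2, 829 at an unadjusted p under 0.05). In Pdgfra-positive members 3 of 7711 genes were called (0.0389%), 1 higher (0.013%) and 2 lower (0.0259%), and DESeq2 called 0. Angpt1, the ligand of the Tie2 receptor, stood at 176, 192, 120 and 220 CPM in fl EAE against 27.2 and 80.7 in fl naive 2 and 3 (log2 change 3.14, adjusted p = 0.0143, edgeR), and at 1.65 without run in the model (adjusted p = 0.104). Rnf220, a ubiquitin ligase, and Rasgrf2, an exchange factor, were called lower (-2.70 and -3.99), and both rested on fl naive 2, at 348 and 218 CPM against 62.4 and 7.34 in fl naive 3. Rasgrf2 was not called without fl EAE 2 (-4.10), NestinCre EAE 1 (-3.68), fl EAE 4 (-3.72, adjusted p = 0.542) or NestinCre EAE 4 (-4.28). Rnf220 was at -0.14 among nuclei of at most 6000 UMIs (adjusted p = 0.984) and at -1.07 in those without leukocyte UMIs (adjusted p = 0.948), and neither Rnf220 (-1.86, adjusted p = 0.109) nor Rasgrf2 (-3.17, 0.135) without run in the model. H2-K1 had a log2 change of 0.26 (adjusted p = 0.982) between fl EAE and fl naive.

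In NestinCre mice 0 of 12418 genes were called over all members (0 by DESeq2, 708 at an unadjusted p under 0.05), and 2 of 7711 in Pdgfra-positive members (0.0259%), Dpp10 and Kcnip1. Dpp10 was at 3786 CPM in fl naive 3 and 561 to 1369 in the other 10 samples, and its log2 change fell from 2.67 to 0.03 when run was left out of the model (adjusted p = 0.999). Kcnip1 fell from 2.44 to 0.49 there (adjusted p = 0.966), and lost its call without fl EAE 1 (2.45, adjusted p = 0.0892), fl EAE 2 (2.47, 0.0609) or NestinCre EAE 3 (2.43, 0.0556). H2-K1 stood at 71.3 to 209 CPM in NestinCre EAE and 3.16 in NestinCre naive 2, and the fitted log2 change, which also takes in fl naive 2 and 3 (16.3 and 22 CPM) as the link between runs, was 6.24 ± 1.35 and missed the threshold (adjusted p = 0.129). The interaction, which asks whether EAE changed a gene more in NestinCre than in fl mice, gave 5.98 ± 1.2 for H2-K1 (adjusted p = 0.146), and called 0 of 7711 genes by edgeR and 1 by DESeq2, with 332 at an unadjusted p under 0.05.

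Over all members the interaction called 4 of 12418 genes (0.0322%), all lower: Wdr17 (-2.05), Slc4a4, a bicarbonate transporter of astrocytes (-1.80), Lama2 (-2.88) and Slc1a3 (-2.22), the first 3 with an adjusted p = 0.0151 and Slc1a3 with 0.0497 (edgeR). NestinCre naive 2 was the highest of the 11 samples for each, with Lama2 at 67.3 CPM, Slc1a3 at 165, Slc4a4 at 319 and Wdr17 at 245. That sample also gave 6 nuclei to cluster 9 and 4 to cluster 13, and their part in the interaction was not tested. None of the 4 was called without NestinCre EAE 2 (adjusted p = 0.0506 for Wdr17, Slc4a4 and Lama2 and 0.116 for Slc1a3), Lama2 was not called without fl EAE 1 (adjusted p = 0.0543), Slc1a3 not without 5 further EAE samples in turn (-1.95 to -2.27), Lama2 and Slc1a3 not with DESeq2 (adjusted p = 0.0735 and 0.12), and none of the 4 in the Pdgfra-positive members.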

How the data were processed

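Nuclei of 11 samples had been profiled by droplet single-nucleus RNA-seq (10x Genomics 3′ chemistry), and the authors deposited 1 matrix of raw UMI counts per gene and barcode for each sample, from Cell Ranger with introns included, on GRCm39. The file headers name Cell Ranger 7.0.0 for run 1 and 6.0.2 for runs 2 and 3, so version and run cannot be told apart. Members, comparison sets and gene lists were chosen with earlier results of these data known.

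Counts were summed over the chosen nuclei of each sample and tested with edgeR 4.0.16 (R 4.3.3) in a quasi-likelihood fit with TMM scaling, edgeR's filter on low counts, run as a covariate, and Benjamini-Hochberg adjustment over all genes tested. A call is an adjusted p under 0.05. Only the 8 EAE samples entered the genotype fit and all 11 the fits with naive samples. Differences between cell classes were fitted with sample as a block. Shares were compared by exact permutation tests (70 arrangements, scipy 1.17.1), with exact Clopper-Pearson 95% intervals. Intervals and limits for 0 counts (3 UMIs over the group) cover counting error only. CPM scales the UMIs of the summed nuclei to the same total in each sample. Standard errors were worked back from the quasi-likelihood test, as the size of the log2 change over the square root of its F statistic. They therefore hold no information beyond that test and the log2 change. Clusters are Leiden clusters (resolution 0.6, 2000 variable genes, 30 components, scanpy 1.11.5), and doublet scores were computed with Scrublet and used only as an alternative. Named genes were Il12rb2 and Il12rb1, per comparison up to 12 called genes in each direction with the smallest p, called genes of the lists, and up to 4 uncalled list genes of the highest level. Olig1, Eif2ak2, Stat3, Fkbp5, Cd74, Gbp3, Gbp7 and Iigp1 were named in Pdgfra-positive members after their values were seen, as that set of nuclei was chosen. On simulated counts, 70.2% of genes changed by 1 and 100% of those changed by 2 on the log2 scale were recovered in Pdgfra-positive members, and 80.9% and 100% in all members. These simulations gave 161 and 186 calls, against 17 and 33 in the data, so they may overstate recovery. Gene positions are from GENCODE vM39, and promoter windows and their motifs from RefSeq (GRCm38.p6). Alternatives were DESeq2 1.42.0, other scaling, no filter, no run, leaving out each sample, and restricted sets of nuclei. Of the called genes, 1 is not reported here by name, though the counts include it.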

Additional observations from a re-analysis of the deposited data

Results flagged for a closer look

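In 5 of 50 groups of 4 samples tested, 1 sample stood apart from the other 3 by more than the critical gap for groups of that size, which chance gives in about 1 of 20 groups. All are levels in Pdgfra-positive members. Gm4951 was at 7.90 CPM in fl EAE 3 and at 0 in the other fl EAE samples, where any value above 0 would have met the criterion, so this one says nothing against chance. Nlrc5 was at 37.5 CPM in the same sample against 0 to 3.69. H2-D1 was at 228 CPM in NestinCre EAE 4 against 79.7 to 102 in the rest of its group. Irgm2 was lowest in NestinCre EAE 1, at 60.9 CPM against 90.3 to 92.8, and Parp11 in NestinCre EAE 2, at 79.7 against 150 to 161.

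The interaction of genotype and EAE over all members was called for Lama2 (-2.88), Slc1a3 (-2.22), Slc4a4 (-1.80) and Wdr17 (-2.05, log2 differences). It rests on 1 NestinCre naive sample, set against fl naive 3 in the same run and the highest of the 11 samples for each of these genes, none of the 4 was called without NestinCre EAE 2 (adjusted p = 0.0506 to 0.116, edgeR), and DESeq2 did not call Lama2 or Slc1a3 (adjusted p = 0.0735 and 0.12).

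The genotype effect in EAE differed from that of granule cells. Over all members the log2 difference was -1.99 for Zbtb16, -0.81 for Wdr17 and 7.35 for Mapkapk3, whose fitted value depends on the prior count because the 4 fl EAE samples held 0 UMIs among members, while NestinCre EAE held 12, 4, 3 and 11 and the naive samples 5, 3 and 5. The Mapkapk3 difference was not called without fl EAE 1, fl EAE 2 or any 1 NestinCre EAE sample (7.18 to 7.51) nor with DESeq2 (5.09, adjusted p = 0.0521). The Wdr17 difference was not called without fl EAE 1, fl EAE 2, NestinCre EAE 2, NestinCre EAE 3 or NestinCre EAE 4 (-0.69 to -0.83, adjusted p = 0.11 to 0.341, edgeR) nor with DESeq2 (-0.80, adjusted p = 0.0994). In Pdgfra-positive members it was -2.17 for Zbtb16, 1.38 for Stat2, 0.99 for Kcnip1 and 0.85 for Gabrb1. The last 3 were not called by DESeq2, and Stat2 and Kcnip1 not with RLE scaling either (adjusted p = 0.0542 for each).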

How the results depend on the processing

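The genotype effect over all members (33 calls) gave 203 with no filter, 9 in Pdgfra-positive nuclei without leukocyte UMIs, 52 in nuclei of at most 6000 UMIs, 17 in Pdgfra-positive members and 25 to 45 leaving out 1 sample. In Pdgfra-positive members (17) it gave 79, 9 and 32 in the same order, 36 in the fit of all 11 samples and 16 to 29 leaving out 1 sample, with 29 without fl EAE 4. DESeq2 gave 28 and 15. EAE against naive in fl mice gave, over all members (0), 64 with no filter, 1 in Pdgfra-positive nuclei without leukocyte UMIs, 69 at most 6000 UMIs, 3 in Pdgfra-positive members and 0 to 10 leaving out 1 sample, and in Pdgfra-positive members (3) 0 with DESeq2, 32, 1 with no run term, 1, 11, 6 with at least 2 Pdgfra UMIs, and 2 to 6. In NestinCre mice it gave 37, 14 with no run term, 1, 6, 2 and 0 to 6 over all members (0), and 1 with DESeq2, 15, 9 with no run term, 1, 4 and 1 to 4 in Pdgfra-positive members (2). The interaction gave 55, 7 with no run term, 0, 28, 0 in Pdgfra-positive members, 2 without the highest doublet scores and 0 to 7 over all members (4), and 1 with DESeq2, 15, 1 with at least 2 Pdgfra UMIs, 1 at most 6000 UMIs and 0 to 3 in Pdgfra-positive members (0). Against mature oligodendrocytes no filter gave 27 and 12 (0 in both), and leaving out 1 sample 0 to 11 and 0 to 1. Against granule cells no filter gave 68 and 15, DESeq2 1 and 1, RLE scaling 2 in Pdgfra-positive members, and leaving out 1 sample 1 to 8 and 2 to 24, with 24 without fl EAE 3. The cause of these shifts was not tested.

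The difference in share turned to -0.0566 (members) and -0.0316 (Pdgfra-positive) within run 1 and to -1.63 and -0.275 as a share of oligodendrocyte lineage nuclei, and ran from -0.0532 to 0.123 and from -0.0256 to 0.0856 leaving out 1 sample. In Pdgfra-positive nuclei without leukocyte UMIs Wdr17 turned to 0.080 (genotype) and Slc4a4 to 0.14 (interaction), beside 0.06 and 0.38 in all Pdgfra-positive members, and Dpp10 to -0.11 (NestinCre EAE against naive, Pdgfra-positive members), the last to -0.65 at most 6000 UMIs. Of the other values of single genes 915 kept their call and 161 lost it. With the replicate block, 37 genes were called over all members and 18 in Pdgfra-positive members, and the share changed by a log2 of 0.0365 and 0.115. The numbers were not taken to pair the samples, since the correlation of deviations of same-numbered samples of run 1 was 0.00808 to 0.0442 over all members and -0.132 to 0.0535 in Pdgfra-positive members. EAE contrasts without 1 naive sample could not be fitted where run then took up the contrast. The depth of 183756 to 506254 UMIs in Pdgfra-positive members limits every list to its better-expressed genes.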
